A study of Mus musculus with 15 samples.

Results

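The genes described here are 10 transcripts of the YAP and TEAD transcription complex and its target genes, followed through RNA sequencing of embryonic mouse pancreata. They comprise the coactivators Yap1 and Wwtr1 (the gene of TAZ), the DNA-binding partners Tead1 and Tead2, and 6 genes widely used as readouts of YAP activity, namely Ccn1 (also Cyr61), Ccn2 (also Ctgf), Amotl2, Ankrd1, Ajuba and Axl. Members were picked by gene symbol. All 10 were found by gene ID among the 25292 genes of the count table, and all 10 were among the 16245 genes that carried enough reads to be tested.

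The data comprised 15 libraries in 5 groups of 3, all from C57/Bl6J mice. Wild-type (wt) pancreata and pancreata labelled S1pr2 null came straight from embryos of 14.5 days post coitum (dpc). The receptor S1pr2 couples to G proteins and binds sphingosine-1-phosphate, and the study gives the null allele as S1pr2 tm1Rlp, which carries a Neo cassette. Wild-type explants of 14.5 dpc spent 2 days on a filter at the air-liquid interface (ALI culture), in standard medium (control), with 15 μM JTE013, an antagonist of S1pr2 (JTE), or with 15 μM JTE013 and 50 ng/ml connective tissue growth factor protein (JTE + CTGF). By the methods, explants were dorsal buds, controls received solvent where appropriate, and a library was a pool of up to 3 organs of the same genotype or treatment. Fresh organs and explants therefore differ in culture, age and dissection together, and these cannot be told apart.

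In the Hippo pathway the kinases Stk3 and Stk4 activate Lats1 and Lats2, which phosphorylate YAP and TAZ and so keep them in the cytoplasm or mark them for degradation. Unphosphorylated YAP and TAZ enter the nucleus and switch on genes through TEAD proteins bound to DNA. The control acts on the proteins, so transcript levels of Yap1 and Wwtr1 do not measure their activity, while transcripts of target genes are the usual readout. In the embryonic pancreas YAP is known as a regulator of progenitor growth, and the study compared YAP targets because sphingosine-1-phosphate receptors can stabilise the YAP protein.

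Libraries held 11402804 to 13828737 counted reads in total. Replicates differed most between JTE 2 and JTE 3 (chi-square per gene 23.2) and least between S1pr2 null 2 and 3 (2.35), and JTE 3 and control 3 stood apart from the others of their groups (17.2 between JTE 1 and 3, 10.2 between control 1 and 3). For S1pr2 itself, the pancreata labelled null held more transcripts (normalised read counts 1458, 1263 and 1354) than wt (772, 762 and 762), by 0.83 ± 0.07 on the log2 scale (SE, n = 3, edgeR adjusted p = 4.50e-07). This count checks the label only in so far as the allele removes counted exons, so directions below refer to the libraries as labelled. Markers of epithelium, mesenchyme, acinar and endocrine cells were present in every group, and no marker of the 10 cell type lists was at 0 across a group. In such whole-organ RNA, fewer cells of a type and less RNA per cell cannot be told apart.

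The sequences below show where the TEAD motif stands near the start of these genes. The letters GGAATG, the core that TEAD proteins recognise, were searched on both strands in the 250 bases before each RefSeq transcript start. RefSeq windows of build GRCm38.p6 were at hand for 8 of the 10 genes, not for Tead1 and Ccn2. The core was found in 7 of these 8, all but Tead2, and in 12.6% of 32851 windows of all genes. Each line gives 30 bases on the strand of the gene, 5′ to 3′, with the core in capitals as it reads on that strand. They are shown because the same letters stand at genes whose transcripts were lower in JTE and at genes whose transcripts were not.
Yap1 (chr9:8004720-8004749, minus strand): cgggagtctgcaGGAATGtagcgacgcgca
Wwtr1 (chr3:57576029-57576058, minus strand): ggtaaactcaaaGGAATGcagataggcgct
Ccn1 (chr3:145650071-145650100, minus strand): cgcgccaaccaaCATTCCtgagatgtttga
Amotl2 (chr9:102717727-102717756, plus strand): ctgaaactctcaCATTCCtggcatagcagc
Ankrd1, distal (chr19:36120037-36120066, minus strand): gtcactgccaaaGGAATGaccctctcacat
Ankrd1, proximal (chr19:36119950-36119979, minus strand): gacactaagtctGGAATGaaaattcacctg
Ajuba, distal (chr14:54577830-54577859, minus strand): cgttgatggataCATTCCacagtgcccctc
Ajuba, proximal (chr14:54577808-54577837, minus strand): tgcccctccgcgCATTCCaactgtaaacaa
Axl (chr7:25788949-25788978, minus strand): ggaaattctacaGGAATGtttaccagaccc
The core began 65 bases before the start in Amotl2, 103 in Ccn1, 141 in Yap1, 170 in Wwtr1 (136 before its other start) and 233 in Axl. Ankrd1 carried it at 210 and 123 bases and Ajuba at 186 and 164. The sites of Amotl2 and Ankrd1 lie within an exon of these genes in the GENCODE M21 annotation, which holds longer transcripts, and the others lie outside exons. No member's window held the AP-1 motif TGANTCA (6.75% of all windows) or a CArG box, the site of serum response factor (1.47%). A match of letters is a description of the window and not evidence of binding.

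Per length of transcript, Tead2 was the most abundant of the 10 in every group. Its level was 69.2 RPKM (reads scaled to exon length and library size) in wt, 80.7 in S1pr2 null, 68.7 in control, 44.6 in JTE and 48.3 in JTE + CTGF, against 6.83, 7.42, 5.33, 6.55 and 2.65 RPKM for Tead1. Yap1 stood at 21.5 RPKM in wt and Wwtr1 at 15.4. Of the targets, Axl and Amotl2 were at 25.2 and 24.0 RPKM in wt, Ajuba at 15.5, Ccn1 at 11.5 and Ccn2 at 4.98, and Ankrd1 was nearly silent with at most 3 reads in any fresh pancreas.

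**Figure D1:**
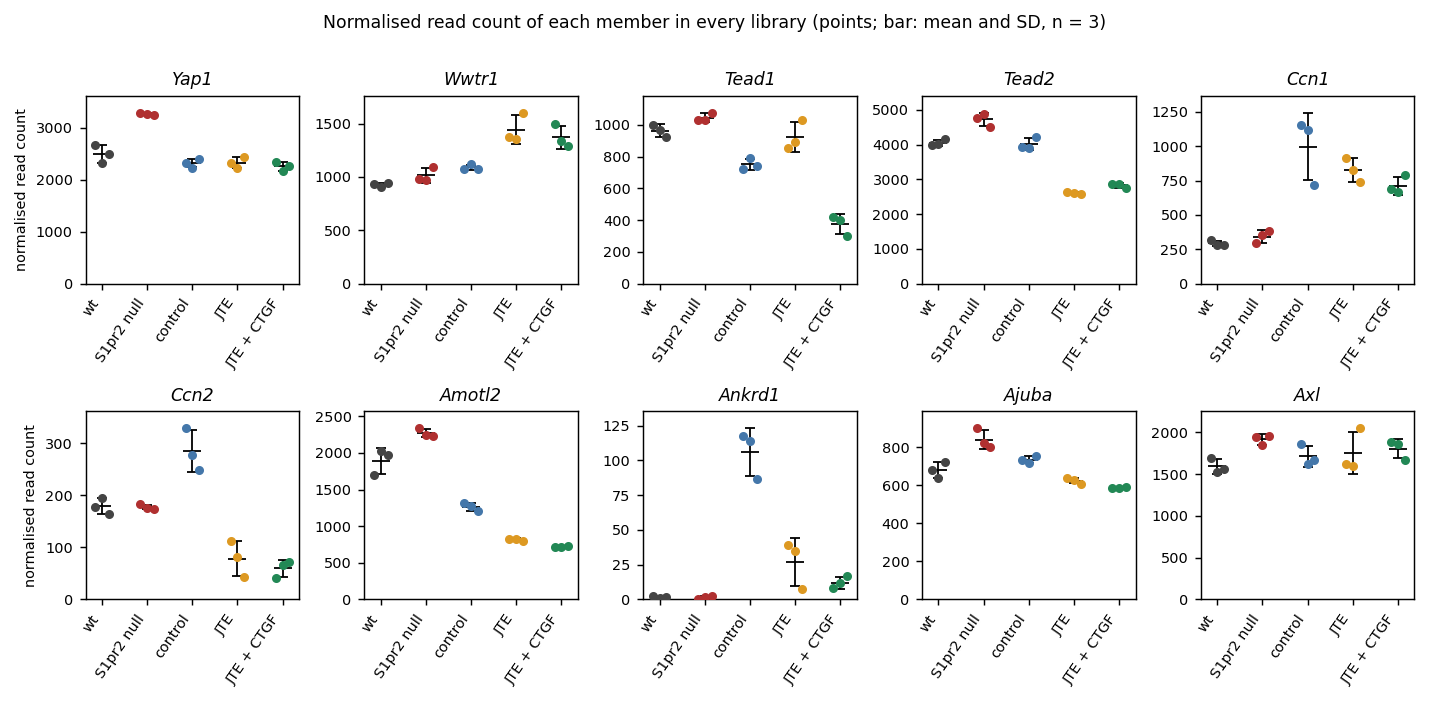
Normalised read count (vertical axis, from 0, a separate scale for each gene) of the 10 genes in the 15 libraries by group. Points are libraries and bars are the mean and SD of 3 libraries. Yap1 stands highest in S1pr2 null, Tead1 lowest in JTE + CTGF, and Ccn2, Amotl2 and Ankrd1 are lower in JTE and JTE + CTGF than in control.

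In the pancreata labelled S1pr2 null, 5 of the 10 genes were higher than in wt (Yap1, Tead2, Amotl2, Ajuba and Axl), where 12.6% of all genes tested were higher. By edgeR 0 members were lower, against 13.3% of all genes, with 0 at an unadjusted p under 0.05 and 0 by DESeq2. The median log2 fold change of the members was 0.23, beside −0.01 over all genes. All 10 epithelial marker genes were lower in the same comparison, their summed normalised counts lying at 20120 to 21240 against 28340 to 31000 in wt, and 5 of 10 mesenchymal markers were lower with 2 higher. All 8 endocrine markers were lower (13410 to 15220 against 26320 to 29120), as were 5 of 7 acinar markers (22050 to 23640 against 64020 to 114500). Of 6 erythroid markers 1 was higher (0 by DESeq2) and 2 were lower. Mean normalised counts in S1pr2 null and wt were 10060 and 3706 for Hbb-y, 2096 and 4201 for Hbb-bs, and 909 and 1837 for Hbb-bt. The part of these shifts, or of a difference in developmental stage, in the members' differences was not tested.

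In explants, 5 of the 10 genes fell in JTE against control (Tead2, Ccn2, Amotl2, Ankrd1 and Ajuba), where 26.2% of all genes were lower, and 2 rose (Wwtr1 and Tead1), where 25.9% were higher. The median of the members was −0.25, beside 0 over all genes. Without JTE 3 the number called was 7 again, and without control 3 it was 8, with Ccn1 past the threshold. With JTE + CTGF, 7 members were lower than in control (33% of all genes were) and Wwtr1 was higher (28.1% of all genes were), with a median of −0.50 beside −0.03. JTE and JTE + CTGF share the control libraries in these comparisons.

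**Figure D2:**
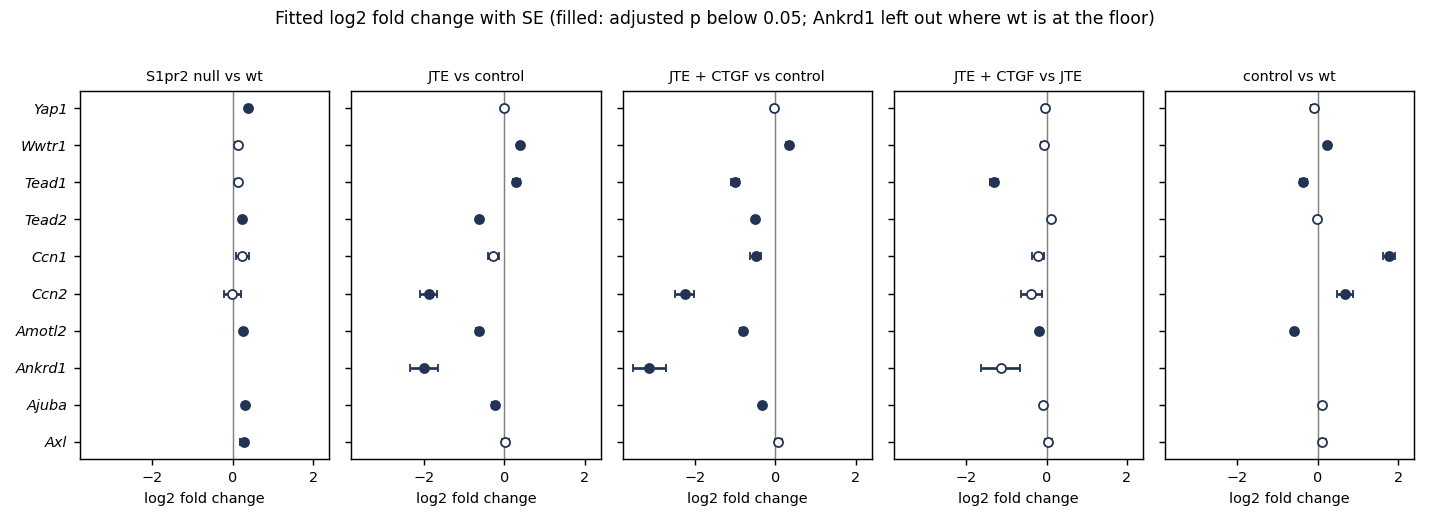
Fitted log2 fold change (horizontal axis) with its SE for each gene in 5 comparisons, filled where the edgeR adjusted p was below 0.05. In the S1pr2 null comparison the filled points lie above 0, whereas in the comparisons of JTE and of JTE + CTGF with control those of Tead2, Ccn2, Amotl2, Ankrd1 and Ajuba lie below it. Ankrd1 is not drawn where the wt libraries were at or under 3 reads.

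With CTGF added to JTE, 2 members were lower than in JTE alone (Tead1 and Amotl2), where 16.8% of all genes were. By edgeR 0 members were higher than in JTE, against 13.6% of all genes. At an unadjusted p under 0.05 the number was 1, and by DESeq2 1, in both cases Tead2. Without JTE 3 the number called was 4, and it was 1 with the replicate number as a block or with only the libraries of the comparison. Between control explants and fresh wt pancreata, 4 members were higher in explants (Wwtr1, Ccn1, Ccn2 and Ankrd1; 28.5% of all genes were) and 2 were lower (Tead1 and Amotl2; 29.3% of all genes were). With library totals alone in place of TMM factors, the median of all genes moved to −0.17 in that comparison and the share of calls that were higher from 49.3% to 33%. The same setting took that share from 44.6% to 36% between JTE + CTGF and JTE.

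Yap1 (ENSMUSG00000053110, chr9:7931999-8004596 in mm10, minus strand), the coactivator itself, passed the test in 1 of the 5 comparisons, that of the pancreata labelled S1pr2 null with wt. Its normalised counts there were 3288, 3261 and 3236, all above the 2669, 2317 and 2498 of wt, and the difference was 0.39 ± 0.05 (log2, SE, n = 3, edgeR adjusted p = 8.27e-05). The 9 explant libraries lay between 2173 and 2435. Control (2324, 2229 and 2390), JTE (2319, 2225 and 2435) and JTE + CTGF (2342, 2173 and 2254) overlapped throughout, with differences of 0.01 ± 0.06 for JTE (adjusted p = 0.921) and −0.04 ± 0.06 for JTE + CTGF (adjusted p = 0.587). In order from low to high the groups were JTE + CTGF, control, JTE, wt and S1pr2 null, and all neighbours but the last pair overlapped. Control differed from wt by −0.11 ± 0.06 (adjusted p = 0.102), a value that passed without wt 2 (−0.16, adjusted p = 0.0239) and with library totals alone (−0.25, adjusted p = 0.00275). The exons share 116 bases with Gm20416 on the other strand, which held at most 1 read per library.

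Wwtr1 (ENSMUSG00000027803, chr3:57455649-57575910, minus strand), which encodes TAZ, the paralogue of YAP, rose in both treated groups of explants. Control libraries held 1077, 1120 and 1076 normalised counts, JTE libraries 1376, 1351 and 1602, and JTE + CTGF libraries 1494, 1336 and 1288. No treated library overlapped the control range. The differences from control were 0.40 ± 0.07 for JTE (log2, SE, edgeR adjusted p = 1.26e-04) and 0.33 ± 0.07 for JTE + CTGF (6.17e-04), and the treated groups overlapped each other. In fresh pancreata the libraries labelled S1pr2 null (979, 970.5 and 1092) lay above wt (931, 905 and 938), though the difference of 0.13 ± 0.07 did not pass (adjusted p = 0.184). Control explants were above wt by 0.24 ± 0.07 (adjusted p = 0.00850), a call that was lost with library totals alone (0.09, adjusted p = 0.327).

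Tead1 (ENSMUSG00000055320, chr7:112679318-112906805, plus strand), a TEAD factor that binds YAP and TAZ on DNA, showed opposite calls in JTE and JTE + CTGF against the shared control. Normalised counts were 723, 790 and 738 in control, 852, 891 and 1028 in JTE, and 417, 402 and 301 in JTE + CTGF. These ranges did not overlap. JTE was above control by 0.30 ± 0.09 (log2, SE, edgeR adjusted p = 0.00839), while JTE + CTGF was below control (−1.01 ± 0.10, adjusted p = 1.43e-07) and differed from JTE by −1.31 ± 0.09 (adjusted p = 1.05e-07), a 2.47-fold lower level. Fresh pancreata held 1000, 966 and 921 in wt and 1030, 1031 and 1076 in S1pr2 null, so the JTE + CTGF libraries were the lowest of all 15. Control lay below wt, without overlap (−0.36 ± 0.09, adjusted p = 0.00203).

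Tead2 (ENSMUSG00000030796, chr7:45215753-45233635, plus strand), the more abundant TEAD factor in these tissues, was lower in both treated groups. It stood at 3938, 3915 and 4219 in control, 2642, 2618 and 2568 in JTE, and 2855, 2872 and 2755 in JTE + CTGF. JTE was 1.54-fold lower than control (−0.63 ± 0.05, edgeR adjusted p = 1.59e-08) and JTE + CTGF 1.42-fold lower (−0.51 ± 0.05, adjusted p = 1.07e-07). All JTE + CTGF libraries lay above all JTE libraries, by 0.12 ± 0.05, which missed the threshold (adjusted p = 0.0753) and passed it with DESeq2 (0.0272). Control and wt (3990, 4013 and 4156) overlapped (−0.01 ± 0.05, adjusted p = 0.864, and −0.15 with adjusted p = 0.0189 on library totals alone), and S1pr2 null was highest at 4780, 4886 and 4512 (0.22 ± 0.05 above wt, adjusted p = 0.00216). The summed RPKM of Tead1 and Tead2, which is mostly Tead2, was 74.0 ± 2.81 in control, 51.1 ± 0.07 in JTE and 50.9 ± 1.52 in JTE + CTGF (SD, n = 3).

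Tead3 and Tead4, the remaining TEAD genes, were on the pathway list. Tead3, at 15.1 RPKM in control, was lower in JTE (−0.23 ± 0.06, edgeR adjusted p = 0.00271) and in JTE + CTGF (−0.19 ± 0.06, adjusted p = 0.00813). Tead4, at only 0.887 RPKM in control, was lower with JTE + CTGF (−0.94 ± 0.25, adjusted p = 0.00405). In JTE its difference from control was −0.45 ± 0.23, which did not pass (adjusted p = 0.113).

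Ccn2 (ENSMUSG00000019997, chr10:24595442-24598683, plus strand) encodes the secreted matricellular protein CTGF, the same factor that was added as protein to the JTE + CTGF explants. Its normalised counts were 328, 277.5 and 249 in control, 111, 80.7 and 42.8 in JTE, and 41.2, 65.3 and 72.25 in JTE + CTGF. Every treated library lay below every control library, and the treated groups overlapped. Ccn2 was 3.68-fold lower in JTE than in control (−1.88 ± 0.22, edgeR adjusted p = 2.08e-06) and 4.78-fold lower in JTE + CTGF (−2.26 ± 0.23, adjusted p = 3.19e-07). The difference between the treated groups was −0.38 ± 0.26 (adjusted p = 0.306), and without JTE 3 it was −0.65 and passed (adjusted p = 0.0247).

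In fresh pancreata Ccn2 stood at 177, 194 and 164 in wt and at 182.5, 175 and 174 in S1pr2 null, and the groups overlapped (−0.01 ± 0.20, edgeR adjusted p = 0.978). Control explants were above wt by 0.67 ± 0.20 (adjusted p = 0.00723), so that the treated explants were the lowest libraries of the series and the control explants the highest. The exons of Ccn2 share 665 bases with Gm15270 on the other strand, which held 7 to 22 reads per library, and its counts carry the uncertainty of that overlap. Of the 50-base words of its transcripts, 17.2% occur in a transcript of another gene on either strand, against at most 1.81% for the other members. That search includes the overlapping Gm15270, so it does not show matches at another locus.

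Ccn1 (ENSMUSG00000028195, chr3:145646971-145649985, minus strand), the close relative of Ccn2 and also a secreted matricellular protein, was less affected by JTE. Control libraries held 1158, 1122 and 714 normalised counts, JTE libraries 914, 824 and 743, and JTE + CTGF libraries 686, 664 and 788. Control 3 lay below all JTE libraries and within the range of JTE + CTGF. JTE differed from control by −0.27 ± 0.14 (edgeR adjusted p = 0.106), and without control 3 by −0.47, which passed (adjusted p = 8.90e-04). JTE + CTGF was lower than control (−0.49 ± 0.14, adjusted p = 0.00625). The step from fresh wt (315, 283 and 281) to control explants was larger, at 3.41-fold (1.77 ± 0.15, adjusted p = 3.32e-08), and S1pr2 null libraries (293, 353 and 381) overlapped wt (0.23 ± 0.16, adjusted p = 0.319).

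Ankrd1 (ENSMUSG00000024803, chr19:36111965-36119844, minus strand), which encodes a repeat protein of muscle and stressed cells and is among the most responsive YAP targets in cultured cells, was found at 3, 1 and 2 reads in wt and 0, 2 and 3 in S1pr2 null. Since all 6 fresh libraries were at or under 3 reads, no fold is given for the genotype. Control explants held 111, 113 and 83 reads, at least 37.9-fold more than wt when wt is set to a floor of 3 reads per library. JTE libraries held 37, 34 and 8 reads and JTE + CTGF libraries 7, 10 and 14. All 6 treated libraries were below control, by 3.96-fold in JTE (−1.99 ± 0.35, edgeR adjusted p = 1.44e-04) and 8.77-fold in JTE + CTGF (−3.13 ± 0.41, adjusted p = 4.41e-06). The treated groups differed by −1.15 ± 0.48 (adjusted p = 0.0793), and without JTE 3 by −1.58 (adjusted p = 0.00181). JTE 3 was the lowest library of its group for Ccn2 and Ankrd1 alike.

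Amotl2 (ENSMUSG00000032531, chr9:102716672-102733418, plus strand), an angiomotin-family scaffold that binds YAP and is also its target, separated all 5 groups without overlap. From low to high these were JTE + CTGF (719, 711 and 728 normalised counts), JTE (825, 826 and 792), control (1315, 1275 and 1205), wt (1692, 2021 and 1974) and S1pr2 null (2334, 2243 and 2230). Both treated groups were lower than control, JTE at −0.64 ± 0.06 (log2, SE, edgeR adjusted p = 3.15e-07) and JTE + CTGF at −0.81 ± 0.06 (adjusted p = 1.47e-08). The step from JTE to JTE + CTGF, −0.18 ± 0.06, only just passed (adjusted p = 0.0450), and the call was lost in DESeq2 (0.0945), with the replicate block (0.0599) and when any 1 of the libraries of these groups was left out (0.0838 to 0.107). S1pr2 null was above wt by 0.26 ± 0.06 (adjusted p = 0.00347), and control was below wt (−0.58 ± 0.06, adjusted p = 3.20e-07), opposite to the direction of Ccn1, Ccn2 and Ankrd1 in that comparison.

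Ajuba (ENSMUSG00000022178, chr14:54567469-54577661, minus strand), a LIM-domain protein that binds and restrains LATS kinases, showed smaller shifts. It stood at 735, 715 and 753 normalised counts in control, 636, 627 and 608 in JTE and 585, 584 and 591 in JTE + CTGF, 3 ranges that did not overlap. Both treated groups were lower than control, JTE at −0.24 ± 0.06 (log2, SE, edgeR adjusted p = 0.00256) and JTE + CTGF at −0.32 ± 0.06 (adjusted p = 1.55e-04), and the value between them was −0.09 ± 0.06 (adjusted p = 0.291). S1pr2 null libraries (899, 822 and 800) lay above wt (681, 638 and 722) by 0.30 ± 0.06 (adjusted p = 8.14e-04). Control overlapped wt (0.11 ± 0.06, adjusted p = 0.110), and passed without wt 3 (0.15, adjusted p = 0.0497).

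Axl (ENSMUSG00000002602, chr7:25757273-25788705, minus strand), a receptor tyrosine kinase for Gas6, passed no test between groups of explants with all libraries in the fit. Its 9 explant libraries lay between 1593 and 2047 normalised counts. JTE 3 was the highest at 2047, against 1622 and 1593 for JTE 1 and 2, and the JTE and control (1858, 1620 and 1671) groups overlapped (0.03 ± 0.08, edgeR adjusted p = 0.769). JTE + CTGF libraries (1888, 1855 and 1674) overlapped JTE (0.04 ± 0.08, adjusted p = 0.761), but without JTE 3 the difference was 0.20 and passed (adjusted p = 0.0301). S1pr2 null libraries (1947, 1845 and 1957) lay above wt (1699, 1525 and 1557) by 0.27 ± 0.08 (adjusted p = 0.0260), a call lost without wt 2, wt 3, S1pr2 null 1 or S1pr2 null 3 (adjusted p of 0.0751 to 0.106).

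Set against the Yap1 transcript, which overlapped between all groups of explants, the targets stood at different ratios. A ratio of RPKM values within a library does not depend on library scaling, and these ratios are given with no test. Ccn2 per Yap1 was 0.399 ± 0.060 in control, 0.110 ± 0.050 in JTE and 0.0859 ± 0.0254 in JTE + CTGF (SD, n = 3), with no treated library near the lowest control (0.337). Amotl2 per Yap1 was 0.806 ± 0.055, 0.516 ± 0.034 and 0.470 ± 0.016 in the same order, and Ankrd1 per Yap1 was 0.241 ± 0.044, 0.0621 ± 0.0401 and 0.0281 ± 0.0103. Axl per Yap1 was 1.36 ± 0.10, 1.38 ± 0.14 and 1.47 ± 0.10, with overlapping libraries.

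In fresh pancreata the mean ratio to Yap1 of each target other than Ankrd1, which was at the floor, was lower in S1pr2 null than in wt, Yap1 being higher there. Ccn2 per Yap1 was 0.176 ± 0.003 against 0.233 ± 0.033, with no overlap of the libraries. The libraries did not overlap for Axl either, but they did for Ccn1, Amotl2 and Ajuba. Wwtr1 per Yap1 was 0.602 ± 0.044 in S1pr2 null, 0.720 ± 0.041 in wt, 0.914 ± 0.053 in control, 1.20 ± 0.07 in JTE and 1.18 ± 0.07 in JTE + CTGF. The transcript of TAZ was therefore the less abundant of the pair per length in fresh organs and control explants and the more abundant in treated explants. The summed RPKM of Yap1 and Wwtr1 was 38.1 ± 0.35 in control and 44.1 ± 3.16 in JTE, while that of the 6 targets was 111.9 ± 12.8 and 88.2 ± 2.81.

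**Figure D3:**
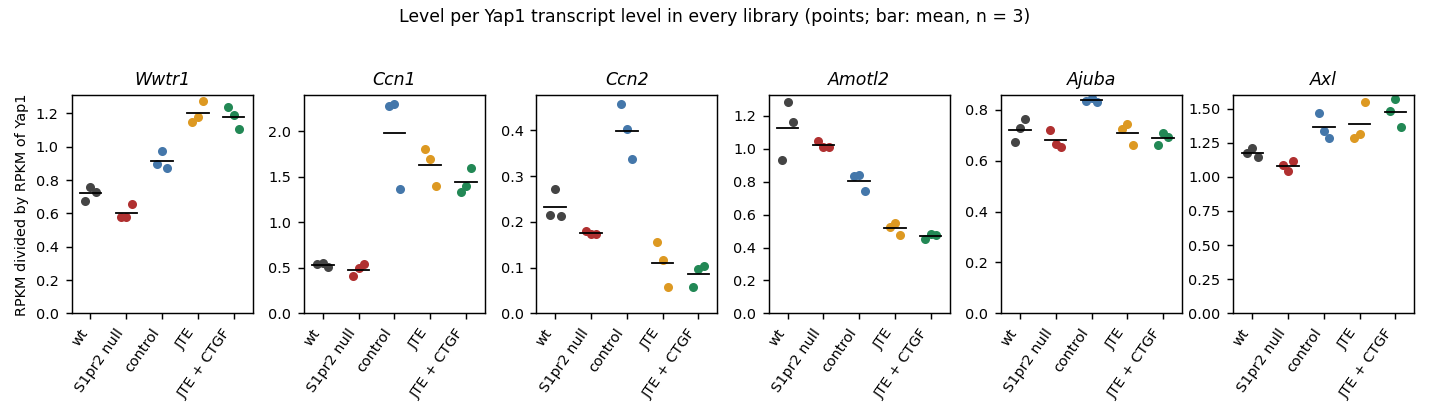
RPKM of 6 genes divided by the RPKM of Yap1 in the same library (vertical axis, from 0, no unit) by group, with points for libraries and a bar for the mean of 3. The Wwtr1 ratio is highest in JTE and JTE + CTGF, the Ccn2 and Amotl2 ratios are lowest there, and the Ccn1 ratio of 1 control library lies apart from the other 2.

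Cell type markers moved in the comparison of JTE with control as well. All 7 macrophage markers were lower (summed normalised counts 1173 to 1358 in JTE, 3475 to 3789 in control), as were 5 of 6 mesothelial (394 to 642 against 730 to 1048), 6 of 8 endothelial (5214 to 5839 against 6900 to 8471), 5 of 10 epithelial (29380 to 36790 against 41560 to 48390) and all 8 endocrine markers (12470 to 16360 against 59010 to 67410). Of 7 smooth muscle and pericyte markers 4 were lower and 1 higher (3474 to 3994 against 4315 to 4734). Of 10 mesenchymal markers 3 were higher and 2 lower. Their sum was 145600 to 181100 in JTE and 163100 to 168900 in JTE + CTGF, above the 132000 to 138400 of control. Collagens made up most of that sum, with means of 49100 for Col1a1, 35900 for Col1a2 and 53760 for Col3a1 in JTE. It therefore does not stand for the list as a whole. Of 7 acinar markers 2 were lower, with overlapping sums (538300 to 976100 against 533000 to 721200). Among all genes, 25.9% were higher and 26.2% lower in JTE than in control. Mesothelium, endothelium and smooth muscle are tissues known to express Ccn1 and Ccn2, and the part of these markers in the members' differences was not tested. In JTE + CTGF against control, all 7 macrophage, 5 of 6 mesothelial and all 8 endocrine markers were lower and 5 of 6 erythroid markers higher (1319 to 2240 against 169 to 436). Of 8 endothelial markers 6 were lower and 1 higher, of 10 epithelial 5 were lower and 2 higher. Of 7 smooth muscle and pericyte markers 4 were lower and 1 higher. Of 7 acinar markers 2 were higher and 2 lower, and of 10 mesenchymal 2 were higher and 1 lower. Among all genes, 28.1% were higher and 33% lower in that comparison. Between wt and control explants all 6 erythroid markers were lower (169 to 436 against 12590 to 15000 in wt). Of 7 macrophage markers 6 were higher, and of 6 mesothelial markers 5 were lower and 1 higher. Higher in control explants were also 7 of 10 epithelial, 4 of 8 endocrine (59010 to 67410 against 26320 to 29120) and 6 of 7 acinar markers (533000 to 721200 against 64020 to 114500). Of 10 mesenchymal markers 6 were higher and 2 lower, with overlapping sums (132000 to 138400 against 137900 to 140600). Of 8 endothelial markers 3 were higher and 4 lower, and of 7 smooth muscle and pericyte markers 3 were higher and 2 lower. Among all genes, 28.5% were higher and 29.3% lower.

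Beyond the members, the wider list of conserved YAP and TAZ target genes moved in both directions. Of 21 tested genes, 10 were higher and 3 lower in S1pr2 null than in wt (median 0.20), 3 were higher and 9 lower in JTE than in control (median −0.19), and 3 were higher and 15 lower in JTE + CTGF than in control (median −0.49). Of all genes, 12.6% were higher and 13.3% lower in the first of these comparisons, 25.9% and 26.2% in the next, and 28.1% and 33% in the last. Without the 5 members on the list, the counts over 16 genes were 8 higher and 3 lower, 3 higher and 6 lower (median −0.05), and 3 higher and 11 lower (median −0.34). In S1pr2 null against wt, the lowest adjusted p belonged to Ccdc80 (−0.52 ± 0.09, edgeR adjusted p = 5.63e-04) and Nuak2 (−0.82 ± 0.16, adjusted p = 0.00113), both lower. Next were Amotl2 and Rbms3 (0.32 ± 0.08, adjusted p = 0.00587 for Rbms3), both higher. Igfbp3, an IGF-binding protein, fell in JTE (−1.40 ± 0.12, edgeR adjusted p = 7.51e-08). Dock5, a guanine nucleotide exchange factor, and Gadd45a, a DNA damage response gene, were higher in JTE by 1.55 ± 0.10 (adjusted p = 2.99e-09) and 0.95 ± 0.10 (adjusted p = 1.18e-06). Myof, a membrane repair protein, was lower in JTE + CTGF than in control (−0.94 ± 0.08, adjusted p = 4.19e-08). Against JTE alone, 8 of the 21 were lower in JTE + CTGF (16.8% of all genes were), among them Ptpn14 (−0.52 ± 0.06, adjusted p = 4.66e-06), a phosphatase that binds YAP, and by edgeR 0 were higher, with 1 at an unadjusted p under 0.05 and 0 by DESeq2.

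The list of 25 Hippo pathway genes holds upstream regulators, the TEAD genes Tead3 and Tead4, and the TEAD-binding genes Vgll3 and Vgll4. Lats2 and Ptpn14 are on the list of conserved target genes as well. In S1pr2 null 9 were higher and 1 was lower than in wt (median 0.16, with 12.6% and 13.3% of all genes), led by Amot (0.95 ± 0.09, edgeR adjusted p = 1.95e-06), an angiomotin that binds YAP, and Dchs1 (0.70 ± 0.12, adjusted p = 3.95e-04), a protocadherin ligand of Fat4. In JTE 9 were higher and 5 lower than in control (median 0.08), where 25.9% and 26.2% of all genes were. The higher ones included Fat4 (0.61 ± 0.06, adjusted p = 7.85e-07), Lats1 (0.40 ± 0.07, adjusted p = 9.20e-05) and Nf2 (0.28 ± 0.04, adjusted p = 3.30e-05), which act upstream as receptor, kinase and scaffold, and Vgll4, a TEAD-binding competitor of YAP, was lower (−0.51 ± 0.06, adjusted p = 2.91e-06). With JTE + CTGF 2 were higher and 13 lower than in control (median −0.19), where 28.1% and 33% of all genes were. Against JTE alone 13 were lower (16.8% of all genes were), with Fat4 at −1.18 ± 0.07 (adjusted p = 7.13e-09) and Taok1, a kinase upstream of Stk3 and Stk4, at −0.57 ± 0.08 (adjusted p = 4.11e-05). By edgeR 0 were higher, with 1 at an unadjusted p under 0.05 and 0 by DESeq2. The part of transcript length in the differences between JTE + CTGF and JTE was not tested, for this list or for the conserved target genes.

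The CCN family and the targets of serum response factor (SRF), an actin-regulated transcription factor with several targets in common with YAP, were counted as well. Of 4 CCN genes with enough reads, Ccn3 was the most changed, at 34.0 ± 8.4 normalised counts in wt, 1071 ± 63 in control, 91.4 ± 19.4 in JTE and 80.7 ± 14.5 in JTE + CTGF (SD, n = 3). It was lower in JTE than in control (−3.56 ± 0.14, edgeR adjusted p = 8.33e-12). Of 12 SRF targets 10 were lower in JTE and 10 in JTE + CTGF than in control (medians −1.09 and −0.88), where 26.2% and 33% of all genes were. By edgeR 0 were higher in each, with 0 at an unadjusted p under 0.05 and 0 by DESeq2. Tagln (−1.80 ± 0.13, adjusted p = 6.55e-09), Myl9 (−2.02 ± 0.16, adjusted p = 3.65e-08) and Tpm1 (−0.74 ± 0.06, adjusted p = 1.64e-08), all cytoskeletal genes of contractile cells, were lower in JTE. Acta2, Tagln and Cnn1 are on the smooth muscle marker list as well. In S1pr2 null 1 SRF target was higher and 2 were lower than in wt (median −0.0049).

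**Figure D4:**
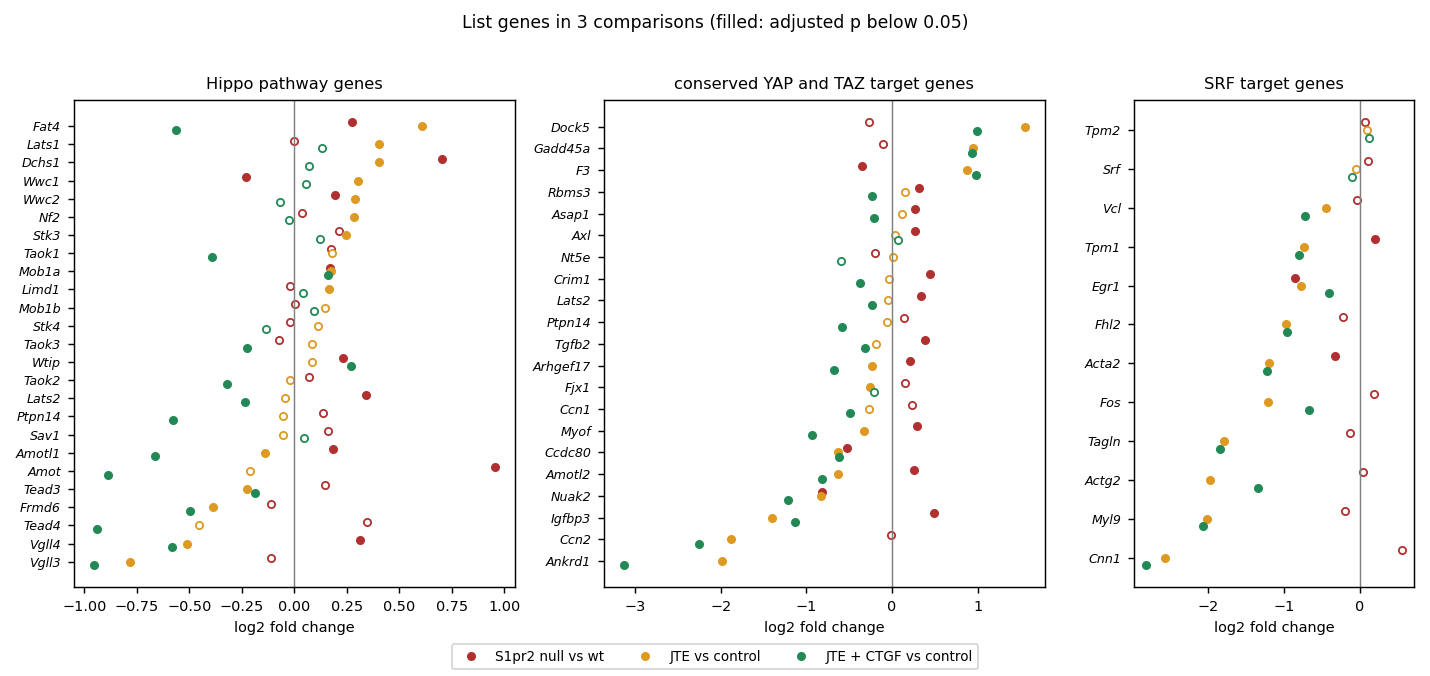
Log2 fold change (horizontal axis) of each tested gene of 3 lists in the comparisons of S1pr2 null with wt, JTE with control and JTE + CTGF with control, filled where the edgeR adjusted p was below 0.05. Of the SRF targets 10 of 12 were lower in both treated groups, while the YAP and TAZ targets spread from Dock5, higher in JTE, to Ankrd1, the lowest.

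The response to JTE in explants and the difference seen in the libraries labelled S1pr2 null use separate libraries, and their difference was tested in the same fit. Of the 10 members, 5 had a lower value in the JTE response (Yap1, Tead2, Ccn2, Amotl2 and Ajuba), where 21.5% of all genes did, and 1 had a higher value (Wwtr1), where 21.5% did. For Ccn2 the JTE response was −1.88 and the null response −0.01, a difference of −1.87 ± 0.30 (edgeR adjusted p = 9.60e-05). For Amotl2 they were −0.64 and 0.26, a difference of −0.89 ± 0.09 (adjusted p = 5.41e-07), and for Tead2 −0.63 and 0.22, a difference of −0.85 ± 0.07 (adjusted p = 6.94e-08). Ajuba (−0.54 ± 0.08, adjusted p = 5.39e-05) was lower in JTE and higher in the null, while for Yap1 (−0.38 ± 0.08, adjusted p = 8.86e-04) the JTE response was near 0. The Wwtr1 difference of 0.27 ± 0.10 (adjusted p = 0.0364) was lost in DESeq2 (0.0619), with RLE factors (0.053) and with library totals alone (0.089). It was also lost without wt 1, wt 3, S1pr2 null 1, S1pr2 null 2, control 1, control 3 or JTE 3 (0.0630 to 0.0904). For Ccn1 the difference of −0.50 ± 0.21 (adjusted p = 0.0640) passed without control 3 (−0.69, adjusted p = 0.00112), S1pr2 null 1 or JTE 1, and with DESeq2 (0.0346), library totals alone (0.0425) or no filter (0.0103). For Axl the difference of −0.23 ± 0.12 (adjusted p = 0.123) passed without JTE 3 (−0.36, adjusted p = 0.00366). Explants and organs differ in culture and age, so tissue state cannot be told apart from the route of S1pr2 loss.

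Across the 15 libraries, the 5 genes whose log2 CPM followed Yap1 most closely were Lef1 (Pearson r = 0.972), Pknox2 (0.967), Plppr3 (0.963), Ssbp3 (0.963) and Plekha8 (0.962), from 11447 genes with a mean normalised count of at least 100. For Ccn2 they were Gm13111 (0.981), Rnf43 (0.971), St6gal1 (0.969), Nhsl1 (0.964) and C130021I20Rik (0.964). Correlations over these libraries share the group structure, and are given as a description with no p.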

How the data were processed

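Poly(A) RNA was sequenced from 15 libraries, 3 in each of 5 groups. The authors aligned single-end reads to mm10 with GSNAP and deposited the raw read count per gene of uniquely aligned reads, made with featureCounts 1.4.6 and an Ensembl annotation. Whether counting used strand was not given in the sources used here. Groups came from the sample titles. Symbols came from GENCODE M21, where 1 of 7 mesothelial marker symbols found no match.

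In R 4.3.3, edgeR 4.0.16 (glmQLFit, glmQLFTest) tested the counts by quasi-likelihood, with TMM factors, filterByExpr and all 15 libraries in 1 fit with 1 coefficient per group. Adjustment was Benjamini-Hochberg over 16245 genes, with calls at an adjusted p below 0.05. P-values measure the spread between pooled samples. SE is the log2 fold change divided by the root of F. Normalised counts are counts divided by the relative effective library size. RPKM used that size and the exon length in the table. Intervals were not computed, and the floor of 3 reads covers counting error only. DESeq2 1.42.0, other size factors, no filter, fewer libraries, a replicate block and leaving out each library were the alternatives.

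The test was checked on counts drawn from the real means. For JTE against control, 97 of 100 genes changed by 1 on the log2 scale and 100 of 100 changed by 2 were recovered. Among 15860 genes, 7 unchanged genes were called. The changed genes were picked from those with higher counts, and changes smaller than 1 were not simulated. All other genes had the same mean in every group, whereas 8474 of 16245 genes were called in the real comparison. The check therefore does not cover smaller differences, genes of low count, or scaling and false calls where many genes differ.

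The members and the pathway and marker lists were chosen with earlier results of these data known. Named genes were all members, up to 4 called genes of each pathway list per comparison with the lowest adjusted p, and the 5 genes most like Yap1 and Ccn2. Tead3 and Tead4, which that rule does not always name, were added after their values were seen. Ccn2, Ankrd1 and Amotl2 are also on the study's own list of YAP-regulated genes, so they are not independent of it. Annotation ran in Python 3.11.15 (numpy 2.4.6), and plots were drawn by matplotlib 3.10.9.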

Additional observations from a re-analysis of the deposited data

Results flagged for a closer look

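The 6 members whose response differed between JTE in explants and the libraries labelled S1pr2 null, by the test of the difference itself, were Tead2 (−0.85), Amotl2 (−0.89), Ccn2 (−1.87), Ajuba (−0.54), Yap1 (−0.38) and Wwtr1 (0.27), each as the JTE response minus the null response on the log2 scale. Tead2, Amotl2 and Ajuba were lower in JTE and higher in the null, each in 3 of 3 libraries against those of its own control group. Ccn2 was lower in JTE and overlapped wt in the null. Yap1 overlapped control in JTE and was higher in the null, and Wwtr1 was higher in JTE in 3 of 3 libraries. The null libraries of Wwtr1 also lay above wt (0.13, edgeR adjusted p = 0.184), so its 2 responses had the same direction. Its call on the difference was lost in DESeq2, with RLE factors, with library totals alone and without any 1 of several libraries. With 3 libraries a group, single values were not tested for outliers, and the values without each library in turn are given with the results they change.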

How the results depend on the processing

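Of 1218 member fold changes under other settings, 1144 kept their direction and side of the threshold, 31 lost and 19 gained a call, and 24 changed sign, none of which was a call. Many of these settings left out a library of neither compared group, which can hardly move the fold. The number that kept is therefore no measure of stability. Members called between JTE + CTGF and JTE, 2 as reported, numbered 1 with only the libraries of the comparison, 1 with the replicate block and 1 to 4 when each library was left out (4 without JTE 3). The block changed the number of members called in no other comparison. Replicate numbers did not pair the libraries: over 30 same-number pairs r ran from −0.11 to 0.25 (median −0.01, and 0.01 for other numbers), and 3 of 15 libraries were closest to their own number.

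Of the list counts, 1 CCN gene was called in S1pr2 null against wt, Ccn4 (0.70 ± 0.20, edgeR adjusted p = 0.015). That count was 2 with no filter, 2 in DESeq2 and 0 to 2 leaving out each library. In JTE against control 2 CCN genes were called (Ccn2 and Ccn3), and the count was 4 with no filter. In JTE + CTGF against JTE the count of CCN genes was 0 to 1 leaving out each library (1 without JTE 3). Hippo genes in S1pr2 null against wt, 10 as reported, were 5 to 12 (5 without wt 2), and SRF targets were 1 to 3 in that comparison (1 without S1pr2 null 3) and 1 to 3 between JTE + CTGF and JTE (1 without JTE + CTGF 2 or 3).

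The sign changes were all near 0, and their cause was not tested. Yap1 in JTE against control was −0.014 with RLE factors and in DESeq2, −0.005 with library totals alone, −0.001 with only the libraries of the comparison, and −0.027 to 0.040 leaving out each library. Tead2 in control against wt was 0.006 with RLE factors and in DESeq2, 0.012 with no filter, 0.008 with only the libraries of the comparison, and −0.045 to 0.010 leaving out each library. Ajuba and Axl in that comparison were −0.033 and −0.038 with library totals alone, a setting that shifted the median of all genes to −0.17 and the share of calls that were higher from 49.3% to 33%; between JTE + CTGF and JTE it took that share from 44.6% to 36%. Leaving out each library gave −0.067 to 0.053 for Ccn2 in S1pr2 null against wt, −0.095 to 0.099 for Axl in JTE against control, and, between JTE + CTGF and JTE, −0.076 to 0.026 for Yap1, −0.139 to 0.046 for Wwtr1 and −0.025 to 0.204 for Axl. Depth limits Ankrd1, with at most 3 reads in any fresh pancreas.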
